A study of Apis mellifera with 2 samples.

Results

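The honey bee miRNA miR-375 was followed in 1 small RNA library of queen larvae and 1 of worker larvae. It is the row named ame-miR-375, 1 of 692 rows of the deposited count table, of which 53 carry honey bee names and 639 are predicted miRNAs. It was chosen by its counts in these same libraries, as the named miRNA with the largest ratio of queen over worker, so its counts, shares, ranks and ratio are given as a description, with no test.

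The larvae were Apis mellifera ligustica of the royal jelly breed 'Zhenongda No.1', kept in 3 colonies. Queens laid for 24 h, and 150 larvae per colony, less than 18 h after hatching, were placed into queen cups. The worker group is larvae of the same colonies collected as worker larvae. On days 4, 5 and 6, 40 to 60 larvae per caste and colony were frozen, over a span of 73 to 138 h after hatching, and about equal amounts of RNA from the 3 days were combined into 1 library for each caste. Colonies and days can therefore not be separated, and the labels name no tissue beyond larva.

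miRNAs are short RNAs that guide Argonaute proteins to messenger RNAs, chiefly through the seed near their 5′ end, and lower the output of those messages. miR-375 occurs across bilaterian animals and is best known from mammals, where it is abundant in pancreatic islets and restrains insulin secretion. In honey bees a larva becomes a queen or a worker according to its food, and insulin and TOR signalling and juvenile hormone have been tied to that choice. The targets of bee miR-375 were not measured here.

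The name ame-mir-375 matched 1 gene of the RefSeq annotation (Amel_HAv3.1), Mir375 (gene ID 100315687), a hairpin gene of 100 bases. Its span lies within that of 1 protein-coding gene, LOC113218672, and the table gives no strand, so which strand that gene uses relative to Mir375 was not examined. LOC726633, a protein-coding gene, and LOC113218673, a long non-coding RNA, are its neighbours on either side. No other annotated miRNA gene (0) lies within 100 kb, so miR-375 is not part of a close miRNA cluster in this annotation. The nearest miRNA gene, Mir9875, is not a row of the count table. Counts are not split by arm, and a read of either arm of the hairpin could stand in the row.

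Queen larvae gave 18879 counts of miR-375 and worker larvae 5784. All rows together held 2658259 queen and 2318675 worker counts, 1.15 times as many for queens, so the raw count ratio of 3.26 became a ratio of 2.85 per listed count (95% interval 2.76 to 2.93). On the scale of counts per 1000000 listed counts (CPM) its level was 7102 CPM for queens and 2495 CPM for workers. Of all miR-375 counts 76.5% were queen counts, whereas 53.4% of all listed counts were. The queen value is the higher of the pair, and the interval holds the error of counting reads alone. With 1 library per caste there is no replicate, so whether queen and worker larvae differ beyond the spread between colonies was not measured. In RNA of pooled larvae, a larger number of cells with miR-375 and more miR-375 per cell cannot be told apart.

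miR-375 took 0.710% of queen counts (0.700 to 0.720, exact Clopper-Pearson) and 0.249% of worker counts (0.243 to 0.256), which is 1 in 141 and 1 in 401 listed counts. At the worker share the queen library would have held 6631 miR-375 counts. The 12248 counts above that number made up 0.461% of the queen library. This gain of 0.461 percentage points from worker to queen was the fifth largest of all rows. Those ahead of it were miR-275 (5.17 points), miR-305 (2.87), miR-184 (2.003) and let-7 (0.568). These 4 were more abundant than miR-375 in both libraries, and all had smaller ratios. miR-375 held 3.89% of the summed gains of 11.8 points, where miR-275 alone held 43.7%.

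By count miR-375 ranked 12th of 53 named miRNAs in the queen library and 22nd in the worker library. In the queen library it stood below miR-71 (31223 counts) and miR-283 (24267) and above miR-993 (16106) and miR-100 (12322). The counting intervals of these shares did not overlap that of miR-375. In the worker library it stood below miR-279 (6457 counts) and miR-92b (6444), whose own intervals overlapped each other, and above bantam (4375) and miR-14 (3087). The interval of miR-375 was again apart from those of all 4.

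The move of 10 ranks was the largest among the named miRNAs with at least 20 counts. Choosing miR-375 by its ratio favours a large rise, so nothing further is read from that order. Of the other 48, miR-12 and miR-9a gained the most places in the queen library, 6 each, miR-263 lost the most, 9, and 30 moved by at most 2. A set of 10 miRNAs lay above miR-375 in the worker library and below it in the queen library. They were miR-993, miR-263, miR-100, miR-190, miR-317, miR-iab-4, miR-13b, miR-2, miR-279 and miR-92b. In the opposite direction there were 0. Such a row would need a larger ratio than miR-375, which was chosen for the largest, so this was fixed in advance. A further 11 were above it in both libraries and 31 below it in both. Ranks do not depend on how the libraries are scaled.

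The ratio of miR-375 was then set against named miRNAs of similar abundance, those whose geometric mean level over both libraries was within 2-fold of its own 4209 CPM. There were 7 of these, at 2523 to 7767 CPM. All 7 were above miR-375 in the worker library and below it in the queen library. Their log2 ratios of queen over worker ran from −2.42 to 0.10 with a median of −0.15, against 1.51 for miR-375 (1.47 to 1.55). The difference from the median was 1.65 on the log2 scale, or 3.15-fold. Over both libraries these miRNAs had 14023 to 39191 counts and miR-375 had 24663. Within a library the counts differed more, as with 3222 queen counts of miR-263 against 18879 of miR-375. No comparator interval reached that of miR-375. No test is given, because miR-375 was chosen for this ratio, which also fixes that all 7 ratios lie below its own.

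**Figure D1:**
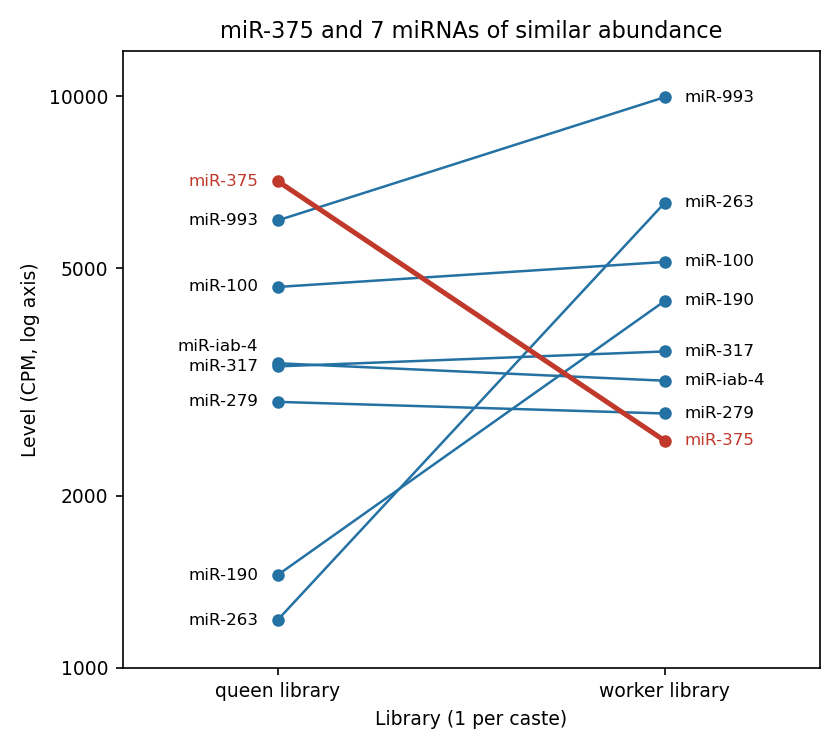
Level in CPM (log axis) in the queen and the worker library for miR-375 (red) and the 7 named miRNAs of similar abundance (blue), 1 library per caste. miR-375 is the highest of the 8 in the queen library, at 7102 CPM, and the lowest in the worker library, at 2495 CPM.

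Among the comparators, 4 differed little between the libraries. miR-100, encoded beside let-7 in many insects, had 12322 queen and 11887 worker counts, a log2 ratio of −0.15 (−0.18 to −0.11). miR-317 had 8949 and 8290 counts and a log2 ratio of −0.09 (−0.13 to −0.04). miR-iab-4, which lies in the Hox complex and represses Hox genes in Drosophila, had 9063 and 7368 counts and a log2 ratio of 0.10 (0.06 to 0.15). miR-279, which limits the formation of carbon dioxide-sensing neurons in Drosophila, had 7758 and 6457 counts and 0.07 (0.02 to 0.12). These values are all within 1.5-fold with scaling to the total, and the signs of miR-100 and miR-317 depend on the scaling.

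The other 3 comparators leaned towards the worker library. miR-993, a relative of miR-10, had 16106 and 23085 counts and a log2 ratio of −0.72 (−0.75 to −0.69). miR-190 had 3862 and 10161 counts and −1.59 (−1.65 to −1.54). miR-263, whose Drosophila counterpart protects sensory bristle cells from death, had 3222 and 15091 counts and −2.42 (−2.48 to −2.37). It stood at the other end of the range from miR-375. In the queen library miR-375 had 5.86 counts for each count of miR-263, and in the worker library 0.383.

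The number of miR-375 counts for each count of another miRNA is free of any scaling, since both come from the same library. For each count of miR-100 there were 1.53 miR-375 counts among queen counts and 0.487 among worker counts, a quotient of 3.15 (3.03 to 3.27). For miR-317 these values were 2.11 and 0.698, with a quotient of 3.02 (2.90 to 3.15). For miR-iab-4 they were 2.08 and 0.785, with a quotient of 2.65 (2.54 to 2.77), the smallest of the 7. For miR-279 the quotient was 2.72 (2.60 to 2.84), for miR-993 4.68 (4.51 to 4.85), for miR-190 8.59 (8.19 to 9.004) and for miR-263 15.3 (14.6 to 16.0). miR-375 thus exceeded each of the 7 in the queen library and fell short of each in the worker library. The quotients restate the differences in log2 ratio, and their direction follows from the choice of miR-375 by its ratio. Matching on the mean level of both libraries favours such a crossing, so nothing further is read from it. All intervals are 95% intervals for counting error, and how reads that fit more than 1 miRNA were assigned is unknown here.

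**Figure D2:**
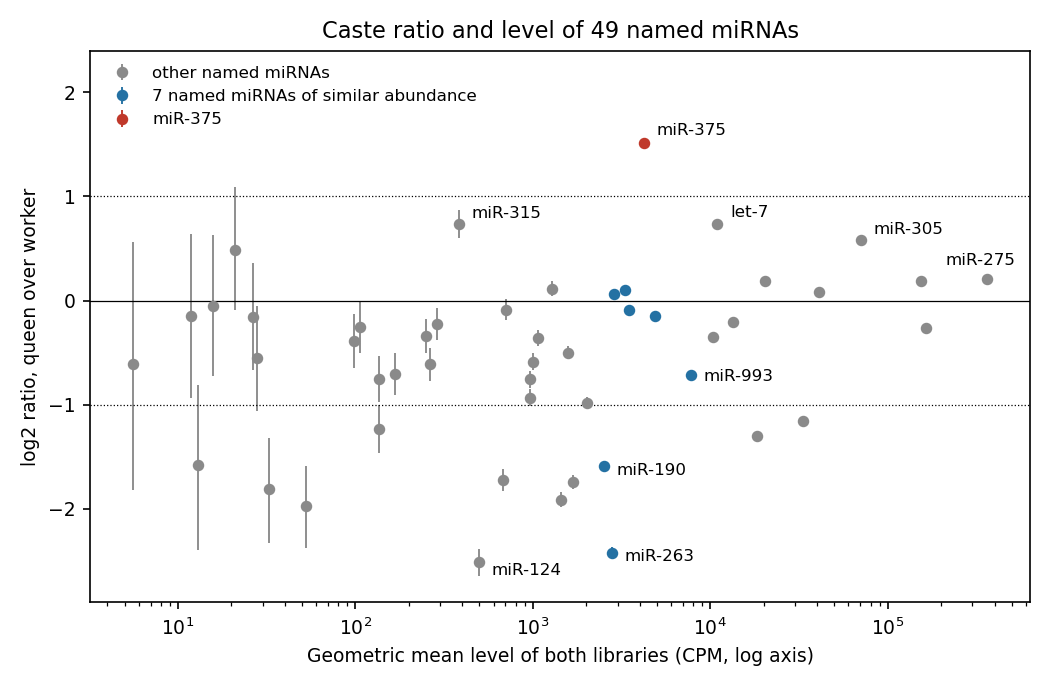
log2 ratio of queen over worker against the geometric mean level in CPM (log axis) for the 49 named miRNAs with at least 20 counts over both libraries; bars are 95% counting intervals and dotted lines mark 2-fold. miR-375 is the single point above the upper dotted line, at 1.51, while the 7 miRNAs of similar abundance (blue) lie between −2.42 and 0.10.

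Among the 49 named miRNAs with at least 20 counts, miR-375 was the 1 at least 2-fold higher in the queen library, which is 2.04% of them. In the worker direction 24.5% were at least 2-fold. Both percentages come from the contrast that chose miR-375, so nothing is read from them. The highest value short of 2-fold in the queen direction was that of let-7, 0.77 lower than that of miR-375 on the log2 scale. The median log2 ratio of the 49 was −0.36, and miR-375 lay 1.87 above it. Among the 20 named miRNAs with at least 10000 counts over both libraries miR-375 is the highest by the same choice. The median log2 ratio of the other 19 lay 1.65 below it, a distance that is the same under every scaling.

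The 3 named miRNAs whose log2 ratio was nearest to that of miR-375 were let-7, miR-315 and miR-305, a likeness measured over 2 libraries only. let-7, which times developmental transitions in animals, had 37658 queen and 19684 worker counts and a log2 ratio of 0.74 (0.71 to 0.76). miR-315, which raises Wingless signalling in Drosophila, had 1313 and 687 counts and 0.74 (0.60 to 0.87). miR-305, which acts in the gut stem cells of Drosophila, had 231014 and 135048 counts and 0.58 (0.57 to 0.59). All 3 leaned towards the queen library, yet lay 0.77 to 0.93 below miR-375 on the log2 scale. At the other end, the lowest ratios among miRNAs with at least 100 counts were those of miR-124, a miRNA of neurons, at −2.52, of miR-263 at −2.42 and of miR-263b at −1.97.

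Predicted rows of this abundance also had lower ratios than miR-375. Of the predicted rows counted in both libraries, 4 had a geometric mean level within 2-fold of miR-375, those numbered 4, 5, 15 and 29. Their log2 ratios ran from −1.39 to 0.27. Among all rows with at least 20 counts and counts in both libraries, 4.96% were at least 2-fold higher in the queen library, again from the contrast that chose miR-375. Of the 72 predicted ones, 2 had a larger ratio than miR-375. Predicted row 90 had 22 queen and 3 worker counts (ratio 6.40, interval 1.92 to 33.4), and predicted row 28 had 253 and 72 (3.07, 2.35 to 4.04). Both intervals span 2.85, the ratio of miR-375. Of the 14 predicted rows with at least 1000 counts over both libraries none (0) had a larger ratio, and the highest was that of row 1, at 2.41. The predicted row that bears the same number as miR-375 is a different entry, with 0 queen and 5 worker counts, and was not added to ame-miR-375.

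miR-375 was next set beside the bee namesakes of 6 other miRNAs described in mammalian pancreatic islets. Of these 0 of 6 were at least 2-fold higher in the queen library, 2 reached 2-fold in the worker direction, and 4 were neither. Of all 49 named miRNAs 2.04% and 24.5% were so. The 2.04% is miR-375 alone, which is not in the list. With this scaling the 0 was therefore fixed in advance, and nothing is read from it. In the worker direction the share of the 6 is read as near the 24.5%. The median log2 ratio of the 6 was −0.31, close to the −0.36 of all 49 named miRNAs, and miR-375 lay 1.81 above it. miR-7, which is abundant in islet and neurosecretory cells of vertebrates, had 996 queen and 2873 worker counts, a log2 ratio of −1.73 (−1.83 to −1.62). miR-124 had 550 and 2743 counts and −2.52 (−2.65 to −2.38). Both were thus lower in the queen library, where miR-375 was higher. In the queen library there were 19.0 miR-375 counts for each count of miR-7 and 34.3 for each of miR-124, against 2.01 and 2.11 in the worker library.

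The remaining namesakes lay between these and miR-375. miR-184, which in mouse islets represses Argonaute2 and is silenced in insulin resistance, had 435758 queen and 333644 worker counts, a log2 ratio of 0.19 (0.18 to 0.19). miR-9a had 2497 and 2793 counts and −0.36 (−0.44 to −0.28), and miR-34 had 259 and 269 and −0.25, with an interval from −0.50 to just below 0. let-7, with 0.74, was the nearest of the 6. With the 3 scalings by TMM, by median of ratios and without the 5 most abundant miRNAs, let-7 passed 2-fold in the queen direction, the values of miR-9a and miR-34 turned positive, and the median of the 6 became 0.12, 0.15 and 0.22. Roles in mammalian islets say nothing about where these miRNAs are made in bee larvae, and no islet cell type is represented here.

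A second list held 7 miRNAs tied to insulin signalling, growth or metabolism in Drosophila. Of these, 0 of 7 were at least 2-fold higher in the queen library, 1 reached 2-fold in the worker direction and 6 were neither. The 2.04% of all 49 named miRNAs is again miR-375 alone, so the 0 was fixed in advance with this scaling. In the worker direction the share of the 7 is read as near the 24.5% of all 49. The median log2 ratio was −0.59, against −0.36 for all 49 named miRNAs, and 6 of 7 values were below 0. Of the 48 named miRNAs other than miR-375, 37 were below 0, so the share of the 7 is read as near that background. miR-277, which controls branched-chain amino acid breakdown in Drosophila, was lowest at −1.23 (−1.46 to −1.01) on 235 and 482 counts. miR-14, which acts in fat metabolism and in insulin-producing cells of the fly, had 1854 and 3087 counts and −0.93 (−1.02 to −0.85). miR-278, which affects insulin responsiveness in the fly fat body, had 346 and 492 and −0.71 (−0.91 to −0.50).

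miR-33, which in animals represses genes of lipid handling, had 2160 and 2830 counts and −0.59 (−0.67 to −0.51). bantam, a promoter of growth and cell survival, had 3543 and 4375 and −0.50 (−0.57 to −0.44). miR-8, which raises insulin signalling and body size through the fat body of the fly, had 33321 and 33560 and −0.21 (−0.23 to −0.19). miR-305 was the 1 member above 0. With the same 3 scalings miR-305 passed 2-fold in the queen direction, miR-277 no longer reached it in the worker direction, and miR-8 turned positive, as did bantam without the 5 most abundant miRNAs. The median of the 7 was then −0.16, −0.13 and −0.07. In the queen library miR-375 outnumbered bantam 5.33 to 1, and in the worker library 1.32 to 1. Both lists were chosen with earlier results of these libraries known, and their counts and medians describe them only.

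**Figure D3:**
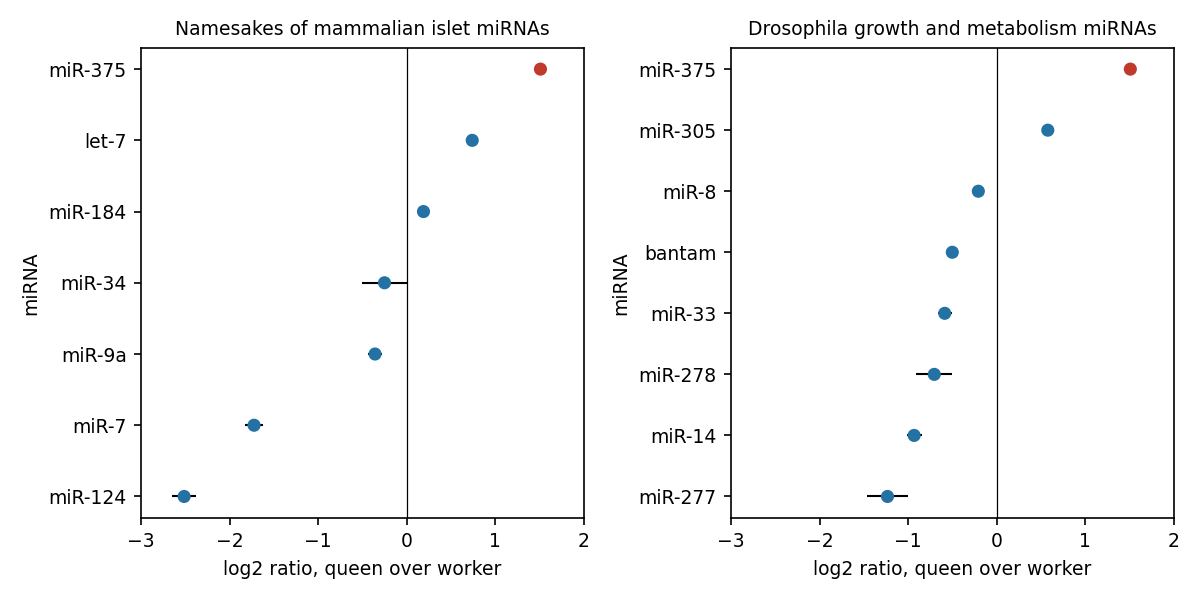
log2 ratio of queen over worker with 95% counting intervals for miR-375 (red) and, in blue, the bee namesakes of 6 miRNAs of mammalian islets (left) and 7 miRNAs tied to growth or metabolism in Drosophila (right), 1 library per caste. No blue point reaches 1 on this scaling, where miR-375 is the only one of the 49 named miRNAs to do so. The nearest are let-7 (0.74) and miR-305 (0.58), and miR-124 lies lowest, at −2.52.

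How the libraries were scaled changed the size of the ratio. The 5 most abundant miRNAs took 83.3% of queen and 76.0% of worker counts, which left a smaller part of the queen total for the other rows. With TMM factors the log2 ratio of miR-375 was 1.94, with median-of-ratios factors 1.97, and with totals that left out the 5 most abundant miRNAs 2.03, which is 4.09-fold. These scalings added 0.43, 0.46 and 0.52 to the log2 ratio of every row. The median of the 49 named miRNAs then became 0.07, 0.10 and 0.16, and that of the 7 comparators 0.28, 0.31 and 0.38. Of the 7, 2 were above 0 with scaling to the total and 4 with each of these 3 scalings, so the signs of miR-100 and miR-317 turned. The distance between miR-375 and the comparators stayed the same, as the scaling adds the same amount to each. With these 3 scalings 4, 4 and 5 named miRNAs were at least 2-fold higher in the queen library in place of 1, among them let-7 and miR-305. Against the 1.51 of miR-375, the largest of these shifts was 0.52.

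**Figure D4:**
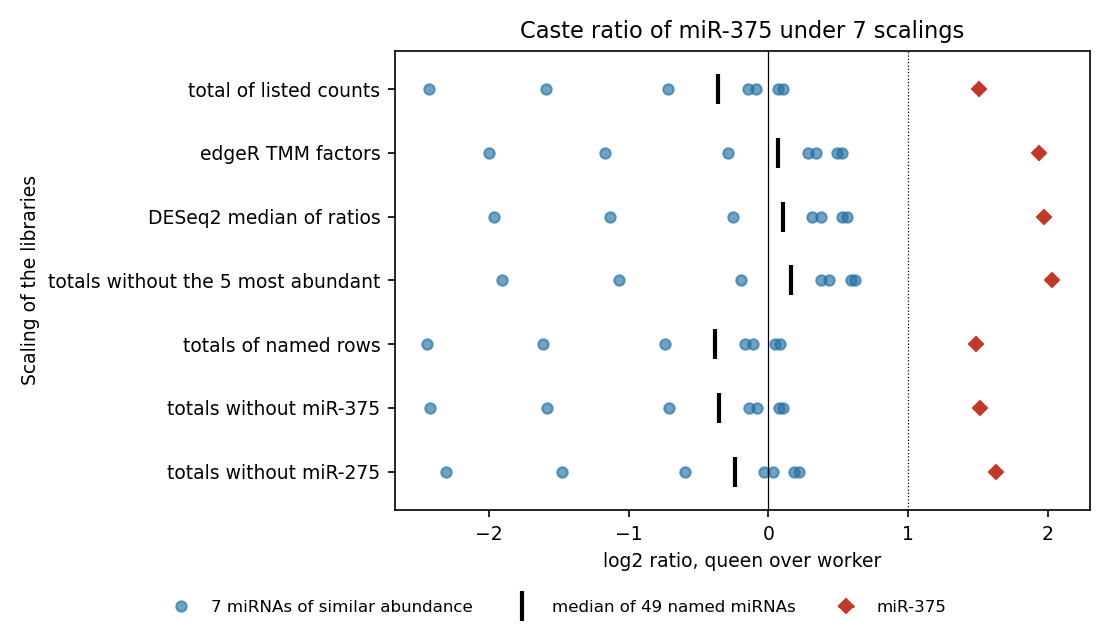
log2 ratio of queen over worker under 7 ways of scaling the libraries (vertical axis), for miR-375 (red, with 95% counting interval), the 7 named miRNAs of similar abundance (blue) and the median of 49 named miRNAs (black bar); the dotted line marks 2-fold. miR-375 lies between 1.49 and 2.03, right of the dotted line and of every blue point in each row, and all points of a row shift together.

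Any 1 named miRNA can also serve as the reference. Over the 48 others with at least 20 counts the log2 ratio of miR-375 ran from 0.77 with let-7 as reference to 4.02 with miR-124, with a median of 1.88. It was at least 2-fold (log2 of 1) with 45 of the 48, and below with let-7, miR-305 and miR-315. All 48 values are positive because miR-375 has the highest ratio of the named rows, which is how it was chosen.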

How the data were processed

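Small RNA of 18 to 30 nt was cut from a gel, ligated to a 5′ and then a 3′ adapter, amplified by RT-PCR and sequenced on the Solexa platform, per the labels' protocols. Ligation and PCR favour some sequences, so levels of different miRNAs in a library are not molar ratios; both libraries carry the same protocol in the labels. The values deposited by the authors are whole-number counts, with 1 column per caste. The aligner, build, miRNA annotation and handling of multiply matching reads are not given in the sources used. Another 242 columns are empty (0 cells filled).

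Counts were divided by each library's listed total, so that 1 count equals 0.376 CPM (queen) and 0.431 CPM (worker). Ratios carry exact conditional (Clopper-Pearson) 95% intervals; quotients of 2 ratios carry large-sample odds ratio intervals. Since PCR copies cannot be told from separate molecules, both cover counting error only. No replicates exist, and no p-values were computed. Rows with at least 20 counts over both libraries (49 named ones) were assessed. miRNAs named in the text were miR-375, its comparators, its rank neighbours in each library, the 3 nearest and 3 lowest ratios, and 2 lists; the 10 rows that changed sides, those with the largest moves or gains, and predicted rows were added after their values were seen. The members and lists were chosen with earlier results of these data known. Scaling factors came from edgeR 4.0.16 (TMM) and DESeq2 1.42.0 (median of ratios) in R 4.3.3, which supplied no tests. Both factors were computed from all 692 rows with no minimum count, so predicted rows with few counts could enter them. The rest used scipy 1.17.1, numpy 2.4.6, matplotlib 3.10.9 and pandas 2.3.3 in Python 3.11.15. Ratio estimates and their intervals were tested on data simulated with counting error only, which cannot speak to PCR copies or spread between larvae. The intervals of shares and quotients were not simulated. Mature sequences of the miRNAs were not used here. RefSeq (Amel_HAv3.1) served for names and neighbours only.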

Additional observations from a re-analysis of the deposited data

How the results depend on the processing

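The log2 ratio of miR-375 (1.51) was 1.94 when scaled by TMM, 1.97 by median of ratios, 2.03 by totals lacking the 5 most abundant miRNAs and 1.63 by totals lacking miR-275; it was 1.49 with totals of named rows and 1.52 with totals without miR-375. With 1 other named miRNA as reference, an alternative chosen after seeing the data, it was 0.77 at the lowest, 1.88 at the median and 4.02 at the highest. The share of miR-375 in the queen and worker library became 0.735% and 0.262% of named counts, 1.16% and 0.377% without miR-275, and 4.24% and 1.04% without the 5 most abundant miRNAs, as each total is smaller. Its rank became 13 and 27 with predicted rows included. The difference from the comparators' median (1.65) became 1.60 for levels within 1.5-fold, 1.86 within 4-fold, 1.79 for queen levels and 2.44 for worker levels within 2-fold, 1.88 over named rows with at least 20 counts, 1.90 over those counted in both libraries and 1.67 with predicted rows. The median log2 ratio of the comparators was −0.93 when chosen by worker level and −0.28 by queen level, against −0.15 in the main setting. Why these medians differ was not tested. All comparators were below miR-375, 5, 16, 6, 9, 48, 51 and 11 of them in these settings. For named rows this follows from the choice of miR-375 by its largest ratio. Only the predicted rows among the 11 could have differed. The direction was the same in each setting, which for named comparators and references was fixed by that choice. No paired analysis was possible because there is a single library of queens and of workers, so none could be left out either. Depth does not limit miR-375, but predicted row 90 rests on 25 counts.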
